A study of Mus musculus with 9 samples.

Results

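The 39 nuclear receptor genes described here are the mouse receptors for thyroid hormone (Thra, Thrb), retinoic acid (Rara, Rarb, Rarg), retinoid X ligands (Rxra, Rxrb, Rxrg), fatty acids (Ppara, Ppard), steroids (Esr1, Esr2, Nr3c1, Nr3c2, Pgr), and sterols, bile acids, vitamin D and xenobiotics (Nr1h2, Nr1h4, Vdr, Nr1i2, Nr1i3), together with the clock receptors (Nr1d1, Nr1d2, Rora, Rorb), the HNF4 receptors (Hnf4a, Hnf4g) and the orphan receptors (Nr2c1, Nr2c2, Nr2e1, Nr2e3, Nr2f6, Esrra, Esrrb, Nr4a1, Nr4a2, Nr4a3, Nr5a1, Nr5a2, Nr6a1). They were taken by name, 39 of 34653 annotated genes, and every measured cytosine within a gene body and 5000 bp to each side of it was used. That gave 2984 of the 838481 cytosines of the series, between 8 (Hnf4g) and 228 (Rora) per gene with a median of 62.

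DNA methylation was measured by reduced representation bisulfite sequencing (RRBS), in which genomic DNA is cut with the restriction enzymes MspI and TaqαI, short fragments are sequenced, and bisulfite turns unmethylated cytosine into uracil, so that the level of a cytosine is the percent of reads in which it stayed cytosine. The cells were primary stromal-vascular cultures of several BL6 mice aged 3 weeks, brown ones from interscapular and white ones from inguinal fat, and such cultures can hold other cell types. Both lineages received the same differentiation mix of insulin, dexamethasone, isobutylmethylxanthine and rosiglitazone. The 4 brown libraries were BAT at days 0, 4 and 6 of differentiation and BAT of day 6 given norepinephrine (NE) for 4 h (BAT + NE). The 5 white libraries were WAT at days 0, 4 and 6 and BWAT, brown-induced white adipocytes differentiated in the presence of NE, at days 4 and 6. Each condition was 1 library, so the spread in the tests below is that between libraries of the same lineage, and no culture was repeated within a condition.

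Nuclear receptors are transcription factors that most often answer to small lipophilic ligands, and many of them bind DNA in pairs with a retinoid X receptor at repeats of the motif AGGTCA. Several act in fat cells: the glucocorticoid receptor Nr3c1 is the target of dexamethasone in the differentiation mix, thyroid hormone receptors take part in thermogenesis, and Rev-erb and ROR proteins (Nr1d1, Nr1d2, Rora) tie metabolism to the circadian clock. Methylation of CpG-rich promoters is generally low whether or not the gene is active, while gene bodies and distal elements carry more methylation. RRBS gives no RNA level, so nothing below is a measure of receptor expression.

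Mean levels over the receptor cytosines lay between 31.7% and 32.5% in the 9 libraries, against 40.2% to 41.2% over all cytosines. The lineage labels were set beside promoters of 4 depot markers. All of these differed between brown and white at an adjusted p below the threshold of 0.05: Hoxc9 and Hoxc10 were higher in brown, and Hoxa5 and Hoxc4 were lower. The study had picked these genes because their promoters differed between BAT and WAT in these same libraries. They therefore give no independent check of the labels. Among markers of other cell types, the Pecam1 promoter (endothelium) had 48.5% ± 3.25 in brown and 72.2% ± 2.44 in white libraries (SD, n = 4 and 5, adjusted p = 0.00157), and the Myf5 promoter (muscle precursors) 82.3% ± 4.17 and 93.8% ± 0.75 (adjusted p = 0.00388). The mean of the 5 endothelial promoters ranged from 39.2% to 41.7% in brown and from 43.6% to 46.7% in white libraries. Pecam1 carried that gap, since the other 4 differed by −2.08 to 2.09 points in both directions, and its downstream flank was called higher in brown (96.8% and 89.8%, adjusted p = 0.00400). The ranges of the 3 haematopoietic promoters (71.7% to 79.2% and 74.1% to 79.7%) and of the 10 muscle promoters (48.2% to 50.2% and 47.8% to 52.8%) overlapped. Gene bodies gave 1 call in 9 endothelial (Erg), 1 in 7 haematopoietic (Itgam) and 1 in 6 muscle genes (Myf5), all lower in brown. Of all gene bodies, 8.9% were called in either direction and 6.31% lower in brown. No promoter of these 3 lists was below 1% in every library. The part of other cell types in the lineage differences below was not tested. All brown cultures came from interscapular and all white ones from inguinal fat. Lineage and depot therefore cannot be told apart here, a limitation the paper also states.

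Most values below refer to RRBS fragments, runs of at least 4 measured cytosines with gaps of at most 300 bp. The sequences of 9 of them are given here because they carry the differences and changes described later, or, for Rxrg, a match to the receptor half-site. They are read from NCBIM37 (mm9) on the strand of the gene, 5′ to 3′, with 15 bp added to each end, and capitals mark the CpGs that were measured.
Nr3c2, mineralocorticoid receptor, intron, chr8:79644723-79644860 (+): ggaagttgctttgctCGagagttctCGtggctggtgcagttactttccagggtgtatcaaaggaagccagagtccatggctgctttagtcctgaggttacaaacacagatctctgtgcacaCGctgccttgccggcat
Nr1d2, Rev-erb beta, intron, chr14:19060861-19061027 (−): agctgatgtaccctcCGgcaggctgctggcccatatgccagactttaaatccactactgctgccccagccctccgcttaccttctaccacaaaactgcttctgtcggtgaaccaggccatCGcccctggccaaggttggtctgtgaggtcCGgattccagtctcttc
Rora, ROR alpha, intron, chr9:68709462-68709555 (+): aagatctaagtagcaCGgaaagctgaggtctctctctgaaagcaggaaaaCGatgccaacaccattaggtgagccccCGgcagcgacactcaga
Esrrb, intron, chr12:87805057-87805231 (+): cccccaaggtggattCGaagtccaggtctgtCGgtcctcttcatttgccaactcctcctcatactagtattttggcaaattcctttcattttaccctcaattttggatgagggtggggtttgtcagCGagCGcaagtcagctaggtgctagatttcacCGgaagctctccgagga
Nr4a2, intron, chr2:56963752-56963815 (−): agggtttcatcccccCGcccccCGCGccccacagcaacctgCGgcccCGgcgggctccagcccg
Hnf4a, intron, chr2:163367741-163367904 (+): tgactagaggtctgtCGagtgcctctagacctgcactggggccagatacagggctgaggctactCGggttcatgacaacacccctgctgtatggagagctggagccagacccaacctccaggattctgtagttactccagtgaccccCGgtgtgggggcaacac
Nr2e3, promoter window and coding exon, chr9:59796373-59796524 (−): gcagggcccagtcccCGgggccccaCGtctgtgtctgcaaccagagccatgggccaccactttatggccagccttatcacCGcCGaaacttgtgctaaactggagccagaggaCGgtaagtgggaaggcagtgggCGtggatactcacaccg
Rarg, promoter window and intron, chr15:102087277-102087384 (−): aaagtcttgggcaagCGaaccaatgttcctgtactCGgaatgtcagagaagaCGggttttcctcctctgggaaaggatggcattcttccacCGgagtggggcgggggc
Rxrg, intron, chr1:169568694-169568863 (+): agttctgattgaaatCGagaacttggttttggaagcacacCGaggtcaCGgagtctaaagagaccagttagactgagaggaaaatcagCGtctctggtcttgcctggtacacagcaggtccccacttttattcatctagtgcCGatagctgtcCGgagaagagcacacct
The half-site AGGTCA, searched on both strands within 100 bp of the centre of each fragment, was found in 27 of 205 receptor fragments (13.2%) and in 11.6% of all 67233 fragments of the series. Of the 9 shown, Nr3c2 and Rxrg had it in that window, and in Rxrg it lies between measured CpGs. A match is a description of the letters and says nothing on binding.

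Receptor promoters were mostly unmethylated in every library, whatever the lineage or day. A promoter was the window from 1000 bp before to 500 bp after each annotated transcript start, merged where windows of a gene overlapped, and 44 promoters of 31 receptor genes held at least 2 cytosines. Of these, 32 promoters of 26 genes stayed below 10% in all 9 libraries (72.7%, against 67.4% of all 15694 promoters), with a median range over libraries of 1.63 points. Esrra, which drives mitochondrial genes, had 1.4% to 3.2% over 44 cytosines, and the single promoter window of Nr3c1 with 127 cytosines had 0.6% to 1.0%. The thyroid hormone receptor Thrb (49 cytosines) lay at 1.06%, Rxra (73 cytosines) at 1.0%, Ppard (60 cytosines) at 0.817% and Nr1d2 (46 cytosines) at 0.809% on average over the 9 libraries. The CpG observed to expected ratio of receptor promoters had a median of 0.575, against 0.594 for all promoters.

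Of the other promoters, 4 stayed above 70% in all libraries and 8 lay between, and 6 of these windows belonged to genes that also had an unmethylated start. Internal starts of Vdr (93.5%), Rarg (89.1%) and Ppara (70.2%) lay far above the other start of the same gene at 3.97%, 5.44% and 1.22%. The photoreceptor gene Nr2e3 had both windows methylated, at 56.9% and 82.2%. For the testicular orphan receptor Nr2c1 the only measured window, at an internal start, lay at 96.6%, and the first start of the gene was not analysed. The liver X receptor Nr1h2 had 47.2%, an internal Nr2f6 start 36.1%, a Rara start 29.1%, Nr4a1 15.6%, a Nr4a3 start 13.4% and Hnf4g 12.8%. For 8 genes (Hnf4a, Nr1d1, Nr1h4, Nr1i2, Nr1i3, Rarb, Rorb, Thra) no promoter window held 2 cytosines, so their promoters were not analysed here.

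**Figure D1:**
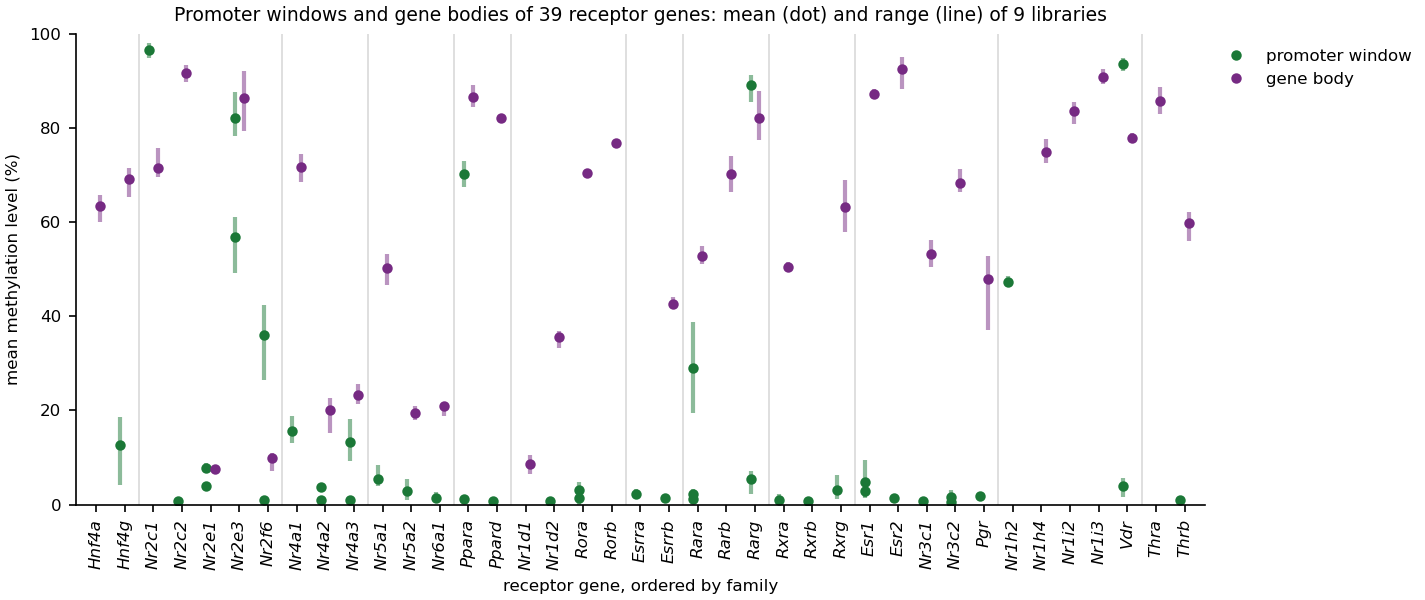
Mean methylation level (percent) of promoter windows (green) and gene bodies (purple) of the 39 receptor genes, with dots for the mean and lines for the lowest and highest of 9 libraries and grey lines between families. Most green dots lie near 0, and bodies have a median of 68.7% with a range from 7.52% (Nr2e1) to 92.6% (Esr2).

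No receptor promoter passed the test of brown against white. In the limma fit of all 9 libraries with lineage and stage (day 0 or later), 0 of 44 receptor promoters passed an adjusted p of 0.05, against 1.37% of all promoters, and 1 (Hnf4g, 2 cytosines) had an unadjusted p under 0.05, against 10.5% of all promoters. The brown libraries of Hnf4g lay at 10.8%, 11.9%, 4.2% and 11.2%, and the white ones at 16.1%, 18.5%, 10.2%, 17.3% and 14.7%, so the groups overlapped. The 4 brown and 5 white libraries overlapped at each of the 44 promoters, where 1.91% of all promoters had no overlap with brown higher and 2.91% with brown lower. Over the 32 unmethylated promoters the difference of the means was at most 1.64 points in either direction. The study's own rule for promoters (at least 2 cytosines past 10 points, all in 1 direction), applied to BAT against WAT at days 0, 4 and 6 without its test of reads, picked 0 receptor promoters at all 3 days, against 0.382% of all promoters higher and 0.726% lower in BAT.

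Gene bodies, here the gene outside its promoter windows, were methylated more than the least methylated promoter window in 27 of the 28 genes with both. The exception was Nr2c1, whose only measured window is at an internal start. In Vdr, Rarg, Nr2f6 and Nr2e1 the other window lay above the body, at 93.5%, 89.1%, 36.1% and 7.70% against 77.8%, 82.1%, 9.80% and 7.52%. Bodies of 36 genes held at least 2 cytosines; Esrra, Nr1h2 and Rxrb had none. Bodies of Nr1d1 (8.67%), Nr2e1 (7.52%) and Nr2f6 (9.80%) were themselves nearly unmethylated. Levels of the receptors with known roles in fat were 85.6% for Thra, 59.8% for Thrb, 86.6% for Ppara, 82.1% for Ppard, 53.2% for Nr3c1, 50.4% for Rxra and 77.8% for Vdr, and none of these bodies passed the lineage test.

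Bodies of 2 of 36 genes passed it, both lower in brown, against 8.9% of all gene bodies in either direction and 6.31% lower in brown. Nr2c2 encodes the orphan receptor TR4. Its body (33 cytosines) had 90.9%, 89.7% and 91.0% in BAT of days 0, 4 and 6 and 90.2% in BAT + NE, and 92.1%, 92.0% and 93.3% in WAT and 93.4% and 92.8% in BWAT. All brown libraries were below all white ones, by 2.29 points on average (logit difference −0.39, SE 0.08, adjusted p = 0.0286), and the body includes the Nr2c2 fragment described below. This call was lost on leaving out any of BAT day 4, BAT day 6, BAT + NE, WAT day 6, BWAT day 4 or BWAT day 6, with adjusted p from 0.0556 to 0.0789.

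Nr1i2 encodes the pregnane X receptor, a xenobiotic sensor of liver and gut. Its body (17 cytosines) had 83.3%, 80.8% and 82.4% in BAT and 81.9% in BAT + NE, and 84.5%, 84.3%, 85.6%, 84.3% and 84.2% in the white libraries (difference −2.48 points, logit −0.25, SE 0.06, adjusted p = 0.0454). The groups did not overlap, but the call was lost whichever of the 9 libraries was left out (adjusted p 0.0658 to 0.105). Brown and white libraries also did not overlap in the bodies of Nr1d2, Pgr and Rxrg, again with brown lower, and of Rara with brown higher, none of them past the test. This makes 5 of 36 bodies lower and 1 higher, where 9.45% and 3.57% of all bodies had these patterns. The flanks (5000 bp to each side) gave 0 of 23 calls, against 4.78% of all flanks, and 4 with an unadjusted p under 0.05, beside Nr2e1 and Rxrg, against 17.4% of all flanks. At that cut 11 of 36 bodies passed, against 23% of all bodies.

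Among fragments, 9 of 205 receptor fragments (4.39%) passed the lineage test, against 9.43% of all fragments. Fragments lower in brown were 7 (Nr3c2, Nr1d2, Nr2c2, Esrrb, Nr4a2, Rora, Hnf4a; 5.91% of all fragments) and higher in brown 2 (Rara, Nr2e3; 3.52% of all fragments). With the Nr1i2 body, 10 of the 39 genes had a lineage call. The share of all genes with any such call was not counted, so this number has no background to be read against. Receptor fragments were more often unmethylated than others, with 34.1% of them under 10% on average against 22.8% of all fragments. Calls among these were equally rare in both sets (1 of 70, or 1.43%, and 1.47%), whereas among fragments from 10% to 70% there were 4 calls in 46 receptor fragments (8.70%, against 21.1% of all such fragments), and from 70% upward 4 in 89 (4.49%, against 7.40%). The median brown minus white difference was 0.0635 points over receptor fragments and −0.0901 over all fragments.

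**Figure D2:**
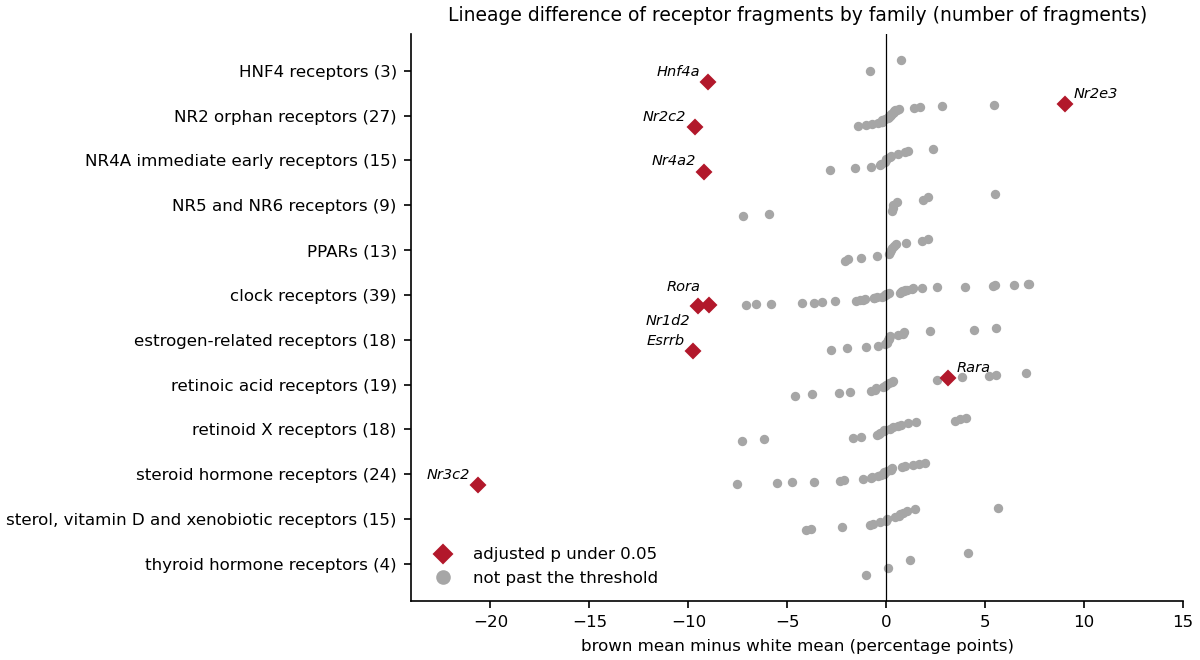
Difference of the brown and white means (percentage points, horizontal axis) for each receptor fragment, grouped by family with the number of fragments, and red diamonds for fragments with an adjusted p under 0.05. Most points lie within a few points of 0, the Nr3c2 fragment stands at −20.6, and 1 fragment shared by Thra and Nr1d1 is not drawn.

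The widest difference of all receptor regions lay in Nr3c2, the mineralocorticoid receptor, which binds aldosterone and glucocorticoids and is known to promote adipocyte differentiation. The intronic fragment chr8:79644738-79644845 lies 7120 bp from the nearest annotated start and holds 5 cytosines. Its level was 39.5%, 48.0% and 46.2% in BAT at days 0, 4 and 6 and 45.7% in BAT + NE. In the white libraries it was 60.6%, 62.2% and 69.3% in WAT at the same days and 68.0% and 67.0% in BWAT at days 4 and 6. Every white library was thus above every brown one, with means of 44.8% ± 3.69 and 65.4% ± 3.77 (SD, n = 4 and 5, logit difference −1.18, SE 0.13, adjusted p = 0.000409). All 5 cytosines were lower in brown, by 12.4 to 32.3 points, and 3 of them had no overlap. The call held with each library left out (adjusted p 0.000640 to 0.00319) and without the cytosine in a restriction site, and was narrowly lost in the 6 libraries without NE when day was a factor (adjusted p = 0.0509). The 2 Nr3c2 promoter windows lay at 1.67% and 0.65%.

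**Figure D3:**
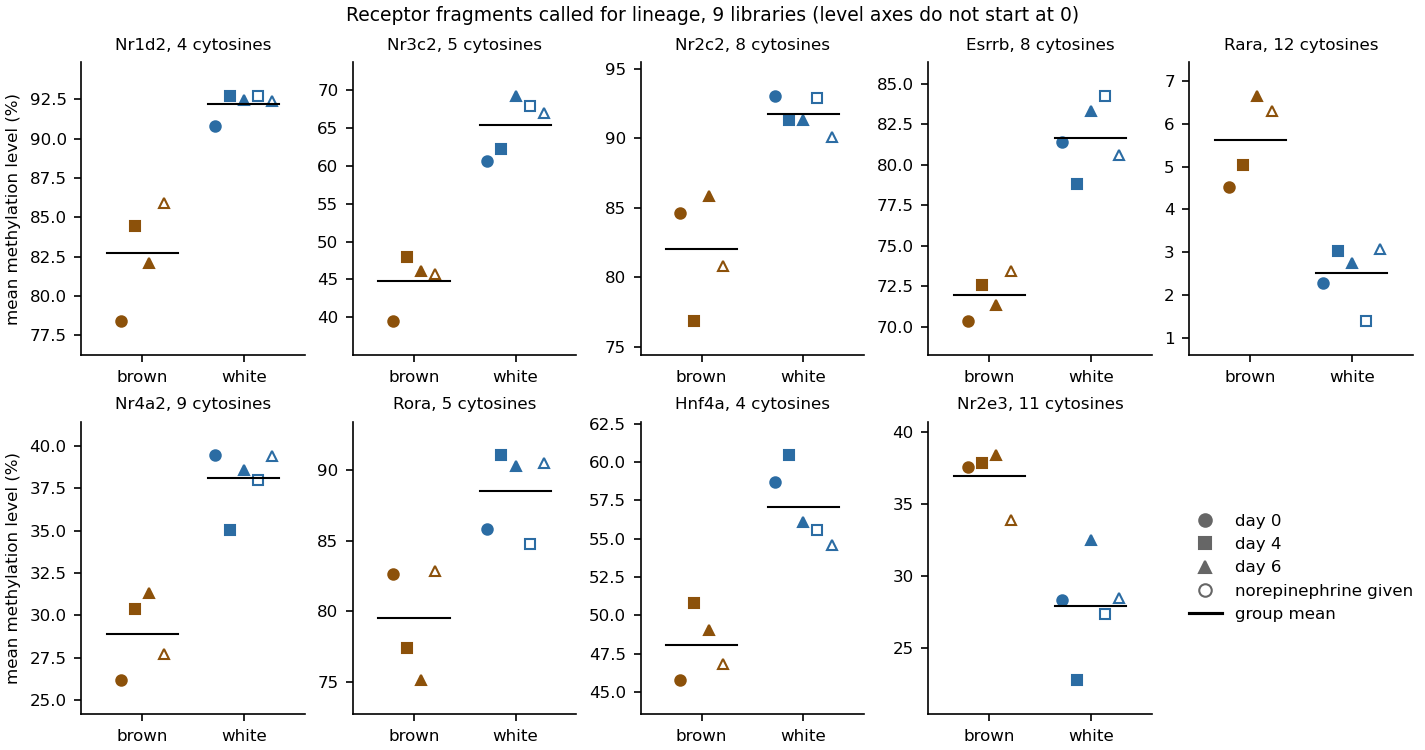
Methylation level (percent) in each of the 9 libraries for the 9 receptor fragments called for lineage, in order of adjusted p, with brown and white libraries side by side, symbols for day, open symbols for libraries given NE and bars for group means. In no panel do brown and white libraries overlap, and the level axes do not start at 0.

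Other steroid receptors showed no call. The Pgr body, 4 cytosines of 1 intronic fragment in the gene of the progesterone receptor, had 49.2%, 46.6%, 37.0% and 42.0% in the brown libraries and 49.7% to 52.7% in the white ones (difference −7.54 points, adjusted p = 0.0619). The brown values spread more than the white ones (SD 5.37 and 1.37), and the 2 groups came within a point of each other without overlapping. Fragment differences of the estrogen receptors stayed between −3.65 and 1.64 points in Esr1 and between −5.51 and 0.25 in Esr2, and those of Nr3c1 between −2.15 and 0.96.

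Among the clock receptors, Nr1d2 gave the smallest adjusted p of all receptor regions. Rev-erb beta is a haem-binding repressor of clock genes. The intronic fragment chr14:19060876-19061012 (4 cytosines, 10601 bp from the nearest start) had 78.4%, 84.5% and 82.1% in BAT, 85.9% in BAT + NE, 90.8%, 92.7% and 92.4% in WAT and 92.7% and 92.4% in BWAT. Brown lay below white at each day, with means of 82.7% ± 3.27 and 92.2% ± 0.80 (logit difference −1.18, SE 0.12, adjusted p = 0.000344), and this was the single receptor fragment still called in the 6 libraries without NE with day as a factor (adjusted p = 0.0317). The difference was not shared by its cytosines. The cytosine at chr14:19061012, in an MspI site and in the first measured CpG of the sequence as printed, had 62.3% in brown and 90.1% in white libraries. That was a difference of −27.8 points with no overlap, while the other 3 cytosines differed by −6.63, 1.08 and −4.60 points. Without the 2 cytosines in restriction sites the fragment fell below 4 cytosines and could not be tested.

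**Figure D4:**
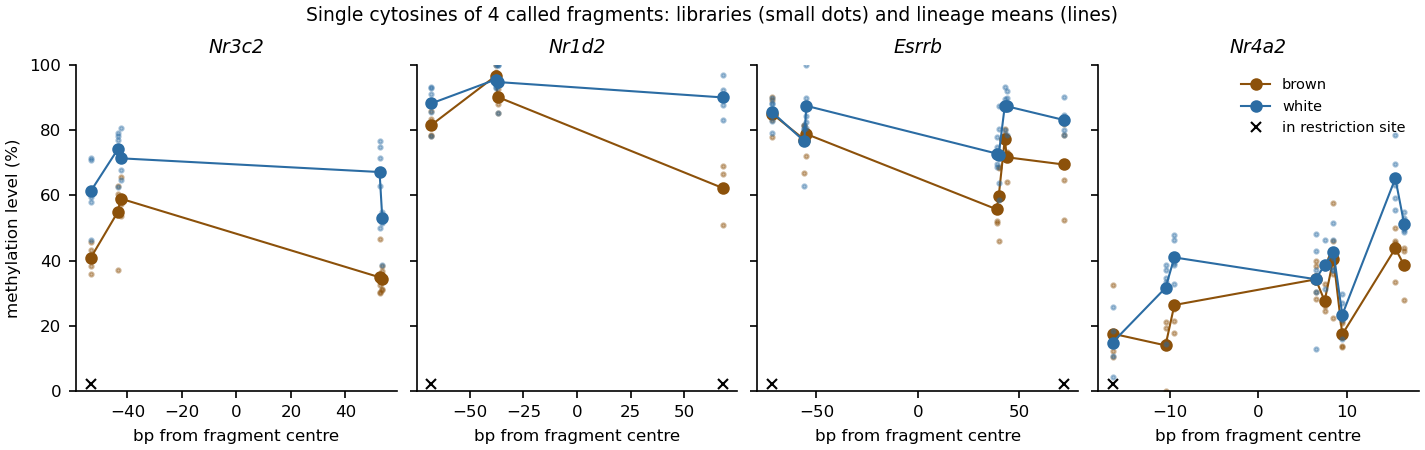
Methylation level (percent) of single cytosines in 4 called fragments against distance from the fragment centre (bp), with small dots for libraries, joined circles for lineage means and crosses under cytosines in MspI or TaqαI sites. In Nr3c2 the lineage means are apart at all 5 cytosines, and the libraries do not overlap at 3 of them. In Nr1d2 most of the difference is at 1 cytosine at the end of the fragment.

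Rora, the gene of ROR alpha, had the most measured cytosines of all members, spread over a long gene, with 27 fragments of which 1 was called. At chr9:68709477-68709540 (5 cytosines) the brown libraries had 82.6%, 77.4%, 75.1% and, with NE, 82.9%, and the white ones 85.8%, 91.0%, 90.3%, 84.8% and 90.5%. The groups were separate by about 2 points at their nearest, between BAT + NE and BWAT at day 4 (difference of means −8.98 points, logit −0.94, SE 0.23, adjusted p = 0.0291), and all 5 cytosines were lower in brown. Leaving out BAT day 4, BAT day 6, WAT day 4, WAT day 6 or BWAT day 6 ended the call (adjusted p 0.0659 to 0.0864). The Rora body over 207 cytosines had 69.6% to 71.2% in brown and 69.7% to 70.8% in white libraries. In Rorb, whose product acts mainly in neural tissue, 2 intronic fragments lay higher and 1 exonic fragment lower in all brown than in all white libraries, none past the test (lowest adjusted p = 0.0953). The Nr1d1 body, which shares 4 cytosines with the Thra window, had 6.52% to 9.99% in brown and 7.96% to 10.4% in white libraries.

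Of the estrogen-related receptors, Esrrb, known for its part in pluripotent cells, had a called intronic fragment and Esrra had none. The fragment chr12:87805072-87805216 (8 cytosines) had 70.3%, 72.6%, 71.3% and 73.5% in the brown libraries in the order BAT days 0, 4, 6 and BAT + NE. The white libraries had 81.4%, 78.8%, 83.3%, 84.2% and 80.6% in the order WAT days 0, 4, 6 and BWAT days 4, 6. The gap between the highest brown and the lowest white library was wider than the range within brown (difference of means −9.75 points, logit −0.77, SE 0.14, adjusted p = 0.00658). The direction was shared by 7 of 8 cytosines, and the call held with each library left out (adjusted p 0.00681 to 0.0307) but not without the 3 NE libraries (adjusted p = 0.0809). The 7 fragments of Esrra differed by −0.07 to 0.87 points.

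The orphan receptors of the NR2 group had calls in both directions. In Nr2c2 a fragment of a coding exon and UTR, chr6:92113132-92113252 (8 cytosines), had 84.7%, 76.9%, 85.8% and 80.9% in brown and 93.0%, 91.3%, 91.3%, 92.9% and 90.1% in white libraries. Brown was lower throughout, by 9.68 points (82.1% ± 4.06 and 91.7% ± 1.24, logit −1.19, SE 0.18, adjusted p = 0.00266), and no single library decided the call (adjusted p 0.00172 to 0.0137), which was lost without the 3 NE libraries (adjusted p = 0.0574). Nr2e3, a photoreceptor gene, showed the opposite at chr9:59796388-59796509, a fragment of 11 cytosines with 37.6%, 37.9%, 38.4% and 33.9% in brown and 28.3%, 22.8%, 32.5%, 27.4% and 28.5% in white libraries. Here 10 of 11 cytosines were higher in brown (difference 9.03 points, logit 0.59, SE 0.16, adjusted p = 0.0441). With 1 library left out, the call remained only without WAT day 6 (adjusted p = 0.0279) and was lost without any other (adjusted p 0.0589 to 0.116). It was also lost without the cytosine in a restriction site and with strands averaged per CpG. Fragment gaps of at most 100 bp, or leaving out the 3 NE libraries, ended it too. Nr2e1 and Nr2f6 had no fragment called, and their differences ranged from −0.71 to 1.68 and from −0.19 to 5.45 points.

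In the NR4A group, immediate early receptors that cAMP and NE signalling are known to induce in fat cells, 1 of 15 fragments was called. Nr4a2 (Nurr1) had an intronic CpG cluster of only 34 bp, chr2:56963767-56963800 with 9 cytosines, 1699 bp from the nearest start. BAT lay at 26.2%, 30.4% and 31.3%, BAT + NE at 27.7%, WAT at 39.5%, 35.04% and 38.6%, and BWAT at 38.0% and 39.4%. Brown was lower by 9.21 points (logit −0.58, SE 0.13, adjusted p = 0.0188), and 8 of 9 cytosines had that direction. The call was lost without BAT day 0 or WAT day 0 (adjusted p = 0.079) and without BAT + NE (adjusted p = 0.0583). Nr4a1 and Nr4a3 fragments differed between lineages by −2.84 to 1.11 and by −0.80 to 2.35 points.

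Hnf4a, a liver and gut regulator, had 1 of its 3 fragments called. The intronic fragment chr2:163367756-163367889 (4 cytosines) had 45.7%, 50.8%, 49.0% and 46.8% in brown and 58.7%, 60.5%, 56.1%, 55.6% and 54.6% in white libraries, without overlap (difference −8.99 points, logit −0.51, SE 0.13, adjusted p = 0.0363). Its cytosines did not move together. The cytosine at chr2:163367889, in a restriction site, differed by −28.8 points, and the other one in a site by −6.56. The cytosines outside sites, on opposite strands of the same CpG, differed by −8.78 and 8.15 points. Without the cytosines in sites the fragment fell below 4 cytosines and could not be tested. Leaving out BAT day 4 kept the call (adjusted p = 0.0493), and leaving out any other library ended it (adjusted p 0.0508 to 0.13).

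Among the retinoid receptors, Rara had a small difference that its cytosines shared unevenly. The fragment chr11:98815740-98816070 lies in an intron 5821 bp from a start and is nearly unmethylated. Over its 12 cytosines the level was 4.53%, 5.04%, 6.65% and 6.31% in brown and 2.30%, 3.04%, 2.74%, 1.40% and 3.08% in white libraries. Brown was thus higher by 3.12 points (5.63% ± 1.01 and 2.51% ± 0.70, logit 0.99, SE 0.19, adjusted p = 0.00921), in 8 of 12 cytosines, and the other 4 had no difference of means. Single cytosines differed by 0 to 11.7 points, and brown and white libraries did not overlap at 2 of them. The call held with each library left out (adjusted p 0.00659 to 0.0326) and was lost without the 3 NE libraries (adjusted p = 0.0617). Rarb fragments differed by −4.63 to −0.17 points and Rarg fragments by −0.58 to 5.57, with no call.

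The retinoid X receptors, which pair with retinoic acid, thyroid hormone and vitamin D receptors and PPARs among others, had no call in 18 fragments. In Rxrg, the isoform of muscle and brain, a fragment near the 3′ end of the gene (chr1:169568709-169568848, 11 cytosines) had 50.6%, 49.9%, 49.0% and 50.01% in brown and 54.7%, 57.4%, 61.9%, 56.6% and 55.4% in white libraries. The groups did not overlap, but the difference of −7.31 points did not pass the test (adjusted p = 0.0738). Rxra fragments differed by −1.69 to 3.75 points and Rxrb fragments by −1.26 to 4.01.

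PPARs, thyroid hormone receptors and the sterol, vitamin D and xenobiotic receptors had no fragment called for lineage in 13, 4 and 15 fragments, nor in the 1 shared by Thra and Nr1d1. Differences ranged from −1.92 to 1.78 points in Ppara, from −2.10 to 2.09 in Ppard and from 0.06 to 1.22 in Thrb. Thra, with 3 fragments, ranged from −4.01 to 4.15, and the lower value belongs to the fragment it shares with Nr1d1. Vdr reached 5.65 at an intronic fragment where brown libraries (87.7% to 93.5%) were all above white ones (80.5% to 86.8%), with an adjusted p of 0.0712. The NR5 and NR6 receptors of gonad, liver and germ line had no call in 9 fragments, and Hnf4g had no fragment.

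Counted without a model, brown and white libraries did not overlap in 14 fragments with brown lower and 7 with brown higher, where the shares of all 67233 fragments were 7.76% and 4.55%. At the level of cytosines, BAT and WAT differed by at least 10 points in 12.0% of the 2984 receptor cytosines at day 0 (179 higher and 180 lower in BAT), in 13.7% at day 4 (213 and 197) and in 15.7% at day 6 (229 and 239), against 16.3%, 17.3% and 18.9% of all cytosines. The share of these that were higher in BAT was 49.9%, 52.0% and 48.9% (exact 95% intervals 44.6% to 55.2%, 47.0% to 56.9% and 44.3% to 53.6%), and over all cytosines 42.5%, 45.5% and 45.6%. Cytosines of 1 fragment share reads, so these intervals are too narrow. The same direction at all 3 days was found for 15 cytosines higher in BAT (0.888% of all cytosines) and 27 lower (1.62% of all cytosines). Fragments that met the 2-cytosine rule at all 3 days were 3 with BAT lower (Nr2c2, Nr3c2, Rora; 3.19% of all fragments) and 0 with BAT higher (1.68% of all fragments).

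The test of differentiation called 1 receptor region. Of 205 fragments, 1 passed the test of later against day 0 libraries (0.173% of all fragments in either direction, 0.055% higher later), and 0 of 44 promoters (0.051%), 0 of 36 bodies (0.144%) and 0 of 23 flanks (0.133%) did so. At an unadjusted p under 0.05 the counts were 4 promoters (2 of them of Rara), 5 bodies and 1 flank, where the shares of all regions were 6.66%, 10.6% and 8.61%, and a p that misses the threshold does not show equal levels. The 2 libraries of day 0, 1 per lineage, carry the whole comparison.

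The fragment lies in Rarg, which encodes retinoic acid receptor gamma, at chr15:102087292-102087369 (7 cytosines, promoter window and intron, 449 bp from a start). At day 0 it had 2.93% in BAT and 3.88% in WAT. Later values were 12.0%, 13.0% and 9.42% in BAT of days 4 and 6 and BAT + NE, 7.38% and 12.8% in WAT and 9.997% and 11.1% in BWAT. Every later library was above both day 0 libraries, with a mean rise of 7.48 points (logit 1.53, SE 0.23, adjusted p = 0.0434), and 6 of 7 cytosines rose on average. The rise was 8.51 points in brown and 6.46 in white libraries, and its difference between lineages did not pass the limma interaction test (adjusted p = 1). The call held only without WAT day 4 (adjusted p = 0.0242), and with any other library left out the adjusted p was between 0.0771 and 0.553. The whole Rarg promoter window (17 cytosines) went from 2.88% to 6.18% with adjusted p = 0.193.

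**Figure D5:**
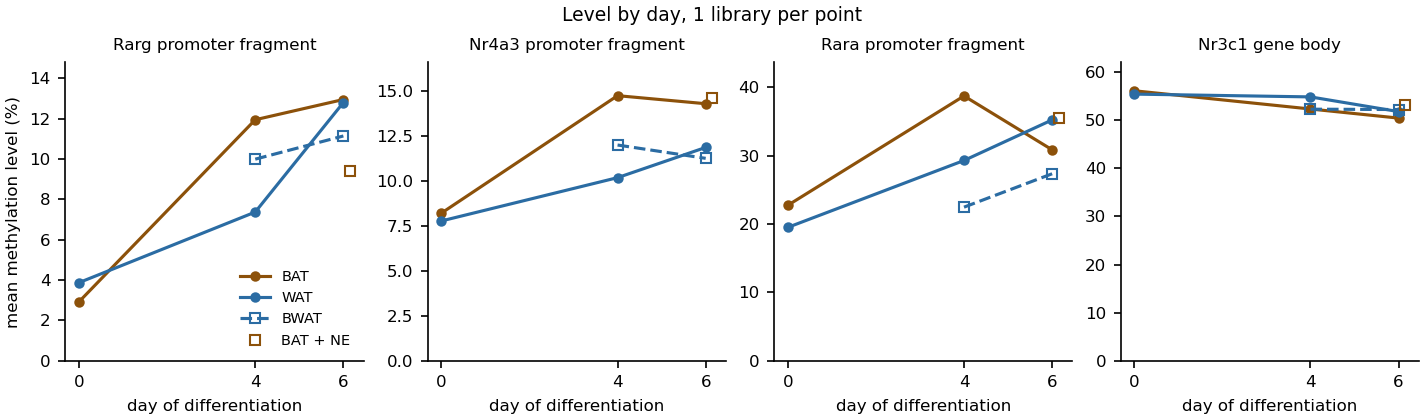
Methylation level (percent) by day of differentiation in BAT, WAT, BWAT and BAT + NE (drawn just right of day 6) for 3 promoter fragments and the Nr3c1 gene body, with 1 library per point and axes from 0. The Rarg and Nr4a3 fragments are lowest in both day 0 libraries, and the Nr3c1 body is highest there.

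Other promoters had values above day 0 in all later libraries without passing the test. The second Nr4a3 start, for the NE-inducible receptor Nor1, had 9.77% and 9.23% at day 0 and 12.3% to 18.1% later (adjusted p = 0.298), and its fragment of 44 cytosines (chr4:48064491-48064741) had 8.20% and 7.77% at day 0 and 10.2% to 14.7% later (adjusted p = 0.164). A Rara promoter fragment (chr11:98789295-98789430, 11 cytosines) had 22.7% and 19.5% at day 0 and 38.7%, 30.8%, 35.5%, 29.3%, 35.2%, 22.5% and 27.3% later in the order BAT days 4 and 6, BAT + NE, WAT days 4 and 6, BWAT days 4 and 6. BWAT of day 4 fell between the day 0 libraries, and the mean change of 10.7 points, the widest of all receptor fragments, had an adjusted p of 0.355. In all, 4 of 44 promoters (Nr4a3, Pgr, Rarg, Vdr) had later libraries above day 0 and 0 below, where 5% and 1.68% of all promoters did. The 2-cytosine rule picked Nr4a3 and Rarg as higher at day 6 than day 0 in both BAT and WAT (1.76% of all promoters) and no receptor promoter as lower (0.37% of all promoters).

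Gene bodies gave 4 of 36 with all later libraries higher (Nr2e1, Nr4a1, Nr4a3, Nr5a1; 6.28% of all bodies) and 1 lower (2.28% of all bodies). The lower one was Nr3c1, the glucocorticoid receptor, whose body (17 cytosines) had 56.1% in BAT and 55.4% in WAT at day 0 and 50.4% to 54.8% later (adjusted p = 0.4). Among fragments, 10 had later libraries higher (4.68% of all fragments) and 0 lower (2.32% of all fragments). Both Rxrb fragments among the widest changes lay past the end of the gene. The first, chr17:34175502-34175599 had 12.1% and 8.18% at day 0 and 11.7% to 22.2% later (adjusted p = 0.406). The second, chr17:34176535-34176671, overlapping exons of the neighbouring Col11a2, had 22.7% and 21.9% at day 0 and 23.9% to 38.7% later (adjusted p = 0.55). An Esrrb coding exon fragment (chr12:87859798-87859881) went the other way, with 18.4% and 24.1% at day 0 and 10.9% to 20.5% later (adjusted p = 0.459). From day 0 to day 6, 264 receptor cytosines rose and 178 fell by at least 10 points in BAT (59.7% higher, 56.7% over all cytosines), and 223 rose and 117 fell in WAT (65.6% higher, 55.3% over all cytosines).

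Whether differentiation acted differently in brown and white cells was tested with an interaction term. It passed the threshold in no receptor region of any kind, 0 of 205 fragments included, and in 1 of 67233 fragments of the series (0.00149%). At an unadjusted p under 0.05 there were 2 promoters, 1 body, 0 flanks and 5 fragments, where 4.33%, 4.62%, 5.13% and 4.6% of all regions passed. The fragments included an intronic Rora fragment, chr9:68828382-68828526, with 78.0%, 64.7% and 53.8% in BAT and 66.6%, 76.7% and 80.3% in WAT at days 0, 4 and 6. The limma interaction there had an adjusted p of 1. That fragment also had the widest NE difference of all receptor fragments, with 77.3% in BAT + NE against 53.8% in BAT of day 6.

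NE comparisons rest on single libraries and were not tested. BAT + NE was at least 10 points above BAT of day 6 in 7 of 205 receptor fragments and at least as far below in 3. The median difference was 0.29 points, against 0.03 over all fragments. BWAT was at least 10 points above WAT in 1 fragment and below in 3 at day 4, and above in 1 and below in 2 at day 6. No fragment was that far apart in the same direction on both days. Shares of all fragments at least 10 points apart were not counted, so these counts have no background to be read against. In the promoter and coding exon fragment of Nr2f6 the day 6 values were 26.5% in WAT and 41.3% in BWAT, and in a fragment beside Thra they were 56.8% and 70.8% at day 4 but 81.8% and 67.5% at day 6.

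The other genes of receptor signalling were counted in the same fits. Of the 8 remaining nuclear receptors, 1 of 7 promoters was called, that of the liver X receptor Nr1h3, with 75.0% ± 3.04 in brown and 83.6% ± 1.12 in white libraries (adjusted p = 0.0347). Bodies of the COUP-TF genes Nr2f2 (3.39% and 2.23%, adjusted p = 0.0261) and Nr2f1 (54.2% and 48.0%, adjusted p = 0.0159) were higher in brown. These were 2 of 4 bodies of that list, against 2.59% of all bodies called higher in brown. The Nr2f2 difference was 1.16 points at a low level. Coactivators and corepressors had 0 of 26 promoters and 0 of 17 bodies called (1 and 0 at an unadjusted p under 0.05), and 1 of 15 flanks, upstream of the brown fat coregulator Prdm16 (13.0% and 20.3%, adjusted p = 0.0111). Retinoid supply and turnover had 0 of 10 promoters called (1 unadjusted) and 1 of 12 bodies, that of the retinol dehydrogenase Rdh10 (74.3% and 83.3%, adjusted p = 0.00421). Thyroid hormone supply (4 promoters, 4 bodies, 5 flanks) and steroid and vitamin D supply (11 promoters, 10 bodies, 8 flanks) had no lineage call, with 1 and 4 regions at an unadjusted p under 0.05. Among common target genes 0 of 27 promoters and 0 of 18 bodies were called for lineage (2 and 1 unadjusted) and 1 of 14 flanks, downstream of the glucocorticoid target Fkbp5 (75.5% and 81.6%, adjusted p = 0.0178), while the body of the clock gene Per2 was lower after day 0, with 73.4% and 67.5% at day 0 and 45.0% to 52.6% later (adjusted p = 0.0203). Over all regions, 1.37% of promoters, 8.9% of bodies and 4.78% of flanks were called for lineage, and 0.144% of bodies for differentiation. The unadjusted counts of these lists stand against the shares of all promoters, bodies and flanks given above for lineage. The Prdm16 and Fkbp5 flanks were named after their values were seen.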

How the data were processed

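RRBS was run on 9 libraries of pooled primary cultures, 1 per condition. According to the methods and labels, the authors aligned reads to mm9 with Bowtie (version not given in the sources used here) and kept cytosines with at least 10 reads in all 9 libraries. The deposited values are percent methylation per cytosine, without read counts, so the depth is unknown, no interval on a level can be given, and the study's Fisher test of reads was replaced. All 838481 cytosines lay on a CpG of NCBIM37, and 189016 lay in a restriction site.

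Cytosines were averaged over promoters, gene bodies and flanks (at least 2 cytosines) and fragments (at least 4). Region means were tested with limma 3.58.1 in R 4.3.3 on log2((level + 1)/(100 − level + 1)), called the logit, with lineage and stage as terms, an interaction in a separate fit, and Benjamini-Hochberg adjustment over all regions of a kind. The code was checked on simulated data. P-values measure only the spread between libraries, which differ in day and treatment. Regions were named if called, among the 10 widest lineage differences or the 6 widest changes from day 0, or if of a receptor known from fat cells, and other named fragments and bodies were picked after their values were seen. Members, lists and markers were chosen with earlier results of these data known. Sequences are from NCBIM37, and no column was left unmapped.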

Additional observations from a re-analysis of the deposited data

Results flagged for a closer look

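Dixon's test was applied to 36 groups of 4 brown or 5 white libraries, of which it picks about 1 in 20 by chance, and it picked 2. In the Nr1i2 body, WAT of day 6 (85.6%) stood above the other white libraries, which lay between 84.2% and 84.5%. In the Nr1d2 fragment called for lineage, WAT of day 0 (90.8%) stood below the other white libraries (92.4% to 92.7%), still above every brown library.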

How the results depend on the processing

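None of the 12 called receptor regions reversed its direction in an alternative that gave it a value, and the other receptor regions were not followed one by one. The Nr1d2 fragment was called in all 15 alternatives that gave a value and the Nr3c2 fragment in 16 of 17. The number of receptor fragments called for lineage was 9 of 205 in the main fit. In other settings it is a total that can include fragments not called there. It was 1 in the 6 libraries without NE with day as a factor and 3 without the 3 NE libraries. On the percent scale it was 16, with a logit offset of 5 it was 15, and with 1 library left out 6 to 9. Of the fragments called in the main fit, only Nr1d2 and Nr3c2 kept the call without the 3 NE libraries. The number of receptor gene bodies called was 2 in the main fit, Nr1i2 and Nr2c2. It was 0 in the 6 libraries, 0 without the NE libraries, 6 on the percent scale and 1 with strands averaged per CpG. With 1 library left out it was 0 to 2. It was 1 without restriction-site cytosines and 2 without BAT day 6, and in both settings neither Nr1i2 nor Nr2c2 kept the call. Flanks went from 0 to 1 on the percent scale. The single differentiation call (Rarg) became 0 on the percent scale, with an offset of 5, with strands averaged and without the NE libraries, and 0 to 1 with 1 library left out. With a minimum of 8 cytosines the count was 0 because the Rarg fragment, with 7, was not tested. The share of BAT against WAT cytosines of day 6 that were higher in BAT was 48.9% at a minimum of 10 points and 43.6% at 20 points. The causes were not tested. Over all regions the lineage calls were 6340 fragments (1530 to 7591 in other settings), 215 promoters (0 to 355), 1232 bodies (0 to 1483) and 752 flanks (18 to 955), and the differentiation calls were 116 fragments (16 to 123), 8 promoters (0 to 11), 20 bodies (0 to 46) and 21 flanks (0 to 30). The labels number no replicates, and the fit of the 6 libraries with day as a factor is the one that pairs BAT with WAT, by day. With no read counts, the precision of single cytosines is unknown.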
